A study of Caenorhabditis elegans with 2 samples.

Results

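The dosage compensation genes described here are 10 of the 19487 genes with a line in the deposited intron-retention table, found by their symbols: sdc-1, sdc-2, sdc-3, dpy-21, dpy-26, dpy-27, dpy-28, dpy-30, mix-1 and xol-1. The Caenorhabditis elegans strain BW1943 gave the RNA: mixed-stage embryos were freed by bleaching from worms at 25 °C or at 16 °C, and each temperature had 1 stranded mRNA library and no replicate. Both groups are gad-1(ct226) dpy-11(e224), with both mutations on chromosome V, so temperature and the mutation cannot be told apart, and no wild-type embryos were analysed here. By the series title, GAD-1 (a WD-repeat protein) acts with the Prp19 complex in splicing and in elongation by RNA polymerase II.

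In worms, hermaphrodites have a pair of X chromosomes and males a single one, and the dosage compensation complex binds both hermaphrodite X chromosomes and lowers their transcription. The complex is built from a condensin, a ring-shaped machine that shapes chromosomes, and from recruiting proteins. SDC-2 and SDC-3 bring it to X, DPY-27 and MIX-1 are its SMC ATPases, DPY-26 and DPY-28 are non-SMC subunits, and DPY-21 is a histone demethylase that leads to more H4K20me1 on X. XOL-1 is the switch upstream of the complex: it is high in male embryos, where it keeps sdc-2 off, and is repressed in XX embryos.

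Reads in genes numbered 18175617 at 25 °C and 22016818 at 16 °C, of which 2.47% and 1.43% fell in introns. All 10 genes passed the minimum of 10 combined reads, and 9 of the 10 lay in the highest quartile of exon reads, with xol-1 in the third. Exon and intron reads were scaled by these library totals, and intervals are exact 95% intervals that cover counting error only. Nothing here measures the spread between samples.

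Exon reads were higher at 25 °C in 9 of the 10 genes, with dpy-30 the exception, where 32.8% of all genes were higher. In the highest quartile of exon reads, which holds all of the 10 but xol-1, 1967 of 3742 genes were higher. The median exon difference of the 10 was log2 0.70, or 1.62-fold, against -0.42 over the 14313 genes tested for exon reads and 0.04 in the highest quartile. At 1.5-fold, 8 of the 10 were higher and 0 lower, where 11.2% of all genes were higher and 44.1% lower (9.37% higher of those with at least 1000 combined exon reads, where 7 of 9 of the dosage compensation genes were). At 2-fold the count was 1 of 10, xol-1, against 5.81% of all genes, and none of the 10 was 2-fold lower, against 33.6%. Falls were fewer in the highest quartile of exon reads, with 298 of 3742 genes at least 2-fold lower and 621 at least 1.5-fold lower. Summed over the 10 genes, exon reads made up 4313 of every 1000000 reads at 25 °C and 2733 at 16 °C.

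Among the condensin subunits, mix-1 showed the largest exon difference. mix-1 (chromosome II, 10824246 to 10841424, plus strand), the SMC2-type ATPase shared by all worm condensins, had 13561 exon reads at 25 °C and 8513 at 16 °C, a scaled 1.93-fold difference (1.88 to 1.98). dpy-27 (III, 3813018 to 3819679, minus strand), the SMC4-type ATPase particular to the dosage compensation condensin, had 14859 at 25 °C and 10510 at 16 °C, 1.71-fold higher (1.67 to 1.76). dpy-26 (IV, 12445801 to 12451335, minus strand), the kleisin that closes the ring, had 9545 and 7589 exon reads at 25 °C and 16 °C, 1.52-fold higher (1.48 to 1.57). dpy-28 (III, 10763131 to 10777076, plus strand), a HEAT-repeat subunit, had 8628 and 7209, 1.45-fold higher (1.40 to 1.496). Each of these intervals lay above 1, and that of mix-1 lay above those of the other condensin subunits.

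The genes of the recruiting proteins differed by similar amounts. sdc-2 (X, 11522707 to 11533450, plus strand), whose product directs the complex to X, had 6226 exon reads at 25 °C and 4683 at 16 °C, 1.61-fold higher (1.55 to 1.67). The zinc-finger gene sdc-3 (V, 15039148 to 15048207, minus strand) had 3848 and 2653, 1.76-fold higher (1.67 to 1.85). The zinc-finger gene sdc-1 (X, 16275763 to 16282534, plus strand) had 4402 and 3259, 1.64-fold higher (1.56 to 1.71). All 3 SDC intervals lay above 1 and below that of mix-1.

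The demethylase gene dpy-21 (V, 17936282 to 17949193, minus strand) had 12569 exon reads at 25 °C and 9541 at 16 °C, 1.60-fold higher (1.55 to 1.64). xol-1 (X, 8041313 to 8044409, plus strand) was the gene with the fewest reads, 539 at 25 °C and 298 at 16 °C, and was 2.19-fold higher (1.90 to 2.53). dpy-30 (V, 12191519 to 12192385, plus strand), which encodes a small subunit shared with the SET1/MLL histone H3K4 methyltransferase complexes, had 4217 and 5928 exon reads, 1.16-fold lower (1.12 to 1.21). It was the one gene of the 10 with its exon interval below 1. Scaling by the median exon ratio of all genes in place of the library total adds 0.42 to the log2 value of every gene; dpy-30 then lies above 0, and 8 of the 10 genes pass 2-fold.

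Levels of different genes were compared as exon reads per kilobase of exon and per 1000000 reads (RPKM). The 10 genes ran over a wide range. dpy-30 stood highest, with 378 RPKM at 25 °C and 439 RPKM at 16 °C. The SMC genes dpy-27 and mix-1 followed at 170 and 169 at 25 °C, where their intervals overlapped, and at 99.4 and 87.8 at 16 °C, where they did not. dpy-26 and dpy-21 also overlapped at 25 °C, with 123 each. The SDC genes were lower, with sdc-1 at 63.1, sdc-2 at 35.8 and sdc-3 at 31.3 at 25 °C, against 38.6, 22.2 and 17.8 at 16 °C. xol-1 was lowest, with 12.1 at 25 °C and 5.54 at 16 °C. The order of the 10 genes was the same in both libraries.

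**Figure D1:**
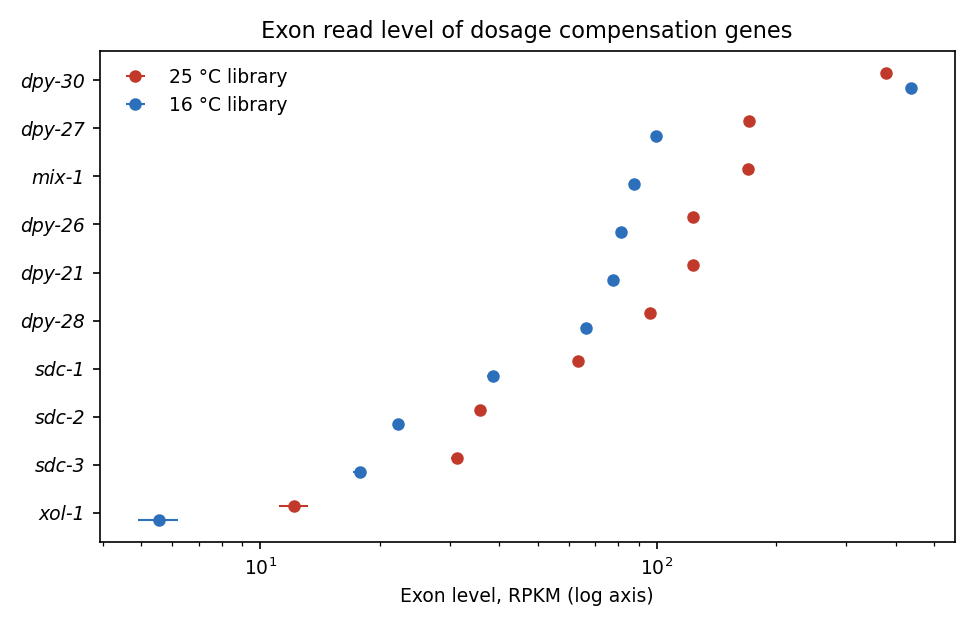
Exon level in RPKM (log axis) of each dosage compensation gene in the 25 °C library (red) and the 16 °C library (blue), 1 library each; bars are exact 95% counting intervals, mostly narrower than the points. The red point lies to the right of the blue one in 9 of the 10 genes, and to the left in dpy-30 (378 at 25 °C and 439 at 16 °C).

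Intron reads of all 10 genes were higher at 25 °C, against 68.6% of all tested genes and 86.9% of those in the highest quartile of exon reads. The median of library-scaled intron reads was log2 1.53, against 0.40 over all tested genes and 1.08 in the highest quartile of exon reads. The summed intron reads of the 10 genes came to 1683 at 25 °C and 625 at 16 °C, 3.26-fold higher after scaling (2.97 to 3.58), while their summed exon reads differed 1.58-fold (1.56 to 1.59). mix-1 alone gave 32.6% of the 10 genes' intron reads at 25 °C and 19.7% at 16 °C.

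**Figure D2:**
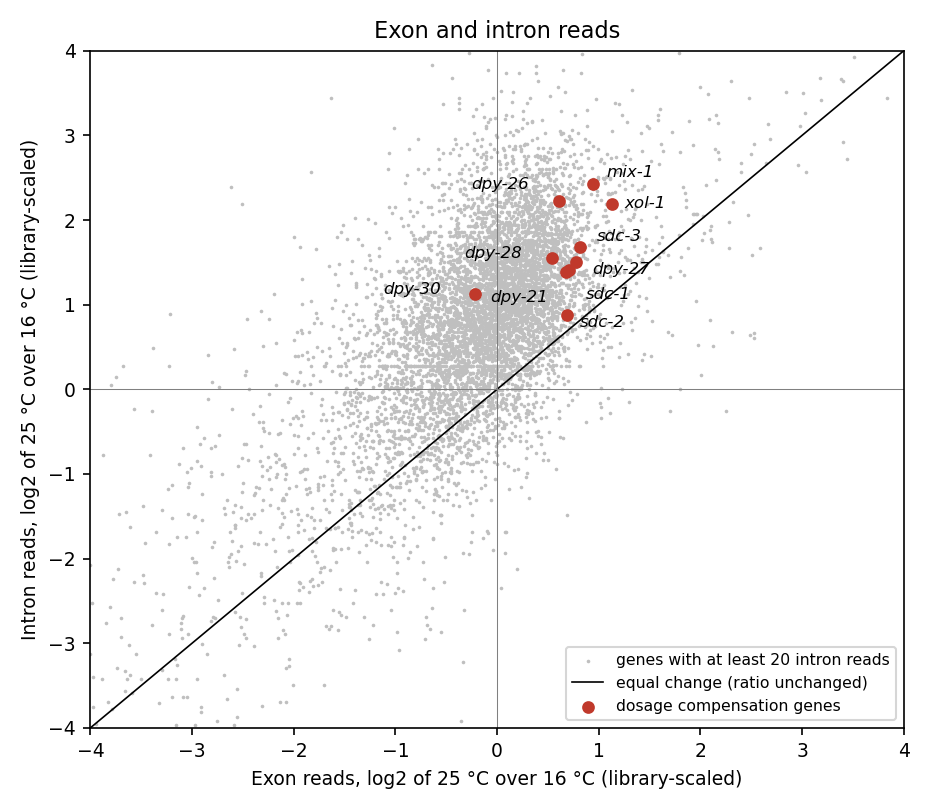
Library-scaled change of exon reads (horizontal, log2) and of intron reads (vertical, log2), 25 °C over 16 °C, for the 6975 genes with 20 or more intron reads in both libraries together (grey) and the 10 dosage compensation genes (red); 137 genes beyond 4 on either axis are not drawn. The 10 red points lie above the diagonal of equal change, and 9 of them lie to the right of 0.

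The intron-to-exon ratio, a gene's intron reads divided by its exon reads, rose in 7 of the 10 genes and fell in 0. The call is a two-sided Fisher exact test on the 4 counts of each gene with Benjamini-Hochberg adjustment at 0.05 over 14972 genes, and it sets 1 library against 1 library, so it says nothing of the spread between cultures at a temperature. Rises were 28.1% and falls 0.614% of all tested genes, and rises were 59.9% of the highest quartile of exon reads, where 7 of 9 dosage compensation genes rose. In the third quartile, which holds xol-1, the share was 34.9%. Under a Bonferroni adjustment at 0.01, which 7.4% of all genes passed as rises, 3 of the 10 stayed called, dpy-21, dpy-26 and mix-1. The share passing it was not computed by quartile of exon reads. The median change of the 10 was log2 0.94, below the 1.06 of all tested genes and the 1.06 of the highest quartile, with dpy-26, mix-1 and dpy-30 above both medians and xol-1 level with them at 1.06.

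In the condensin subunits the ratio rose in 4 of 4. mix-1 had 549 intron reads at 25 °C and 123 at 16 °C, a 2.80-fold higher ratio (2.30 to 3.44; Fisher exact test, adjusted p = 2.59e-26). dpy-26 had 86 intron reads at 25 °C and 22 at 16 °C, a 3.11-fold higher ratio (1.93 to 5.22; Fisher exact test, adjusted p = 4.02e-06). These were the 2 highest ratios among the 10 genes. dpy-28 had 110 intron reads at 25 °C and 45 at 16 °C, a ratio 2.04-fold higher (1.43 to 2.96; Fisher exact test, adjusted p = 0.000272). dpy-27 had 111 and 47, a ratio 1.67-fold higher (1.18 to 2.40; Fisher exact test, adjusted p = 0.0122). Summed over the 4 genes, the ratio was 2.62-fold higher (2.27 to 3.04).

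Among the SDC genes the Fisher exact test called a rise of the ratio in sdc-1 only, though all 3 ratios were above 1. sdc-1 had 167 intron reads at 25 °C and 76 at 16 °C, 1.63-fold higher (1.23 to 2.17; Fisher exact test, adjusted p = 0.00266). sdc-3 had 51 and 19, a ratio of 1.85 (1.07 to 3.33) that missed the threshold of the Fisher exact test (adjusted p = 0.0669). sdc-2 had 58 and 38, a ratio of 1.15 (0.748 to 1.78; Fisher exact test, adjusted p = 0.845), the lowest of the 10. The intron reads of sdc-2 were 1.85-fold higher (1.21 to 2.86) and its exon reads 1.61-fold higher. Its ratio interval held 1 and also the called ratios of sdc-1, dpy-21 and dpy-27, so an equal change is not shown. The summed ratio of the SDC genes was 1.52-fold higher (1.23 to 1.89), and its interval lay below that of the 4 condensin subunits. Without mix-1, a choice made after the data were seen, the condensin ratio was 2.06-fold higher (1.66 to 2.58), and the intervals overlapped. The difference between these groups was not tested.

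dpy-21 had 478 intron reads at 25 °C and 222 at 16 °C, a 1.63-fold higher ratio (1.39 to 1.93; Fisher exact test, adjusted p = 3.36e-08). dpy-30 had 49 and 27, a 2.55-fold higher ratio (1.56 to 4.25; Fisher exact test, adjusted p = 0.00067), with fewer exon reads at 25 °C. xol-1 had 24 and 6, and the Fisher exact test did not call its ratio of 2.21 (0.867 to 6.68; adjusted p = 0.212); at this depth its interval held both 1 and the largest ratio of the 10 genes. Of the 45 pairs of genes, 4 had ratio intervals that did not overlap: mix-1 lay above dpy-21, sdc-1 and sdc-2, and dpy-26 above sdc-2.

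**Figure D3:**
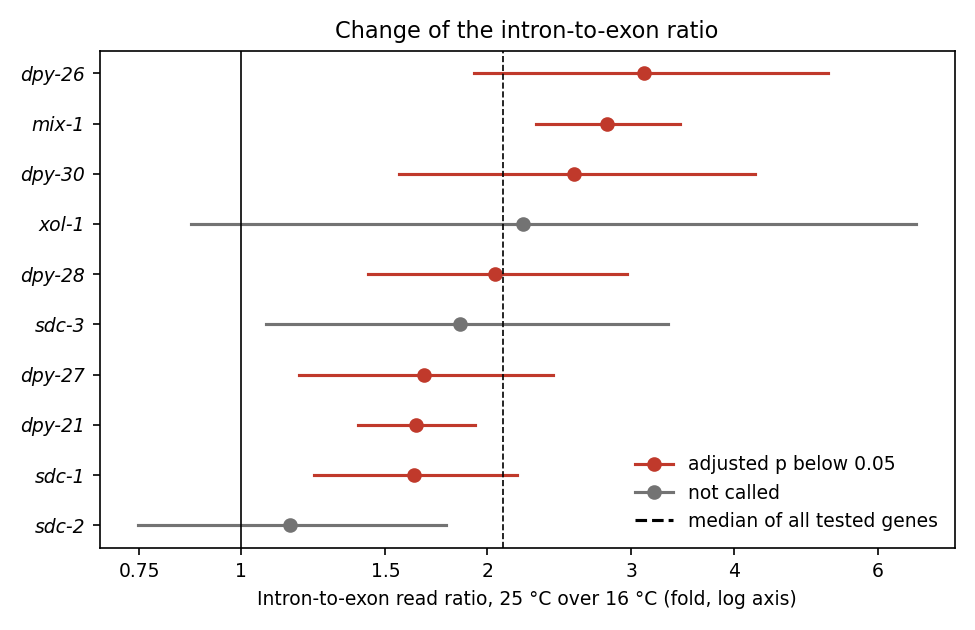
Fold of the intron-to-exon ratio, 25 °C over 16 °C (log axis), in the 10 dosage compensation genes with exact 95% intervals; red marks genes called by the Fisher exact test, grey those not called, and the dashed line the median of all tested genes (2.09-fold). The 7 called genes range from 1.63-fold to 3.11-fold, on both sides of the dashed line.

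A rise of the ratio together with exon reads at least 1.5-fold higher was seen in 5 of the 10 genes, against 2.40% of all genes. These were mix-1, dpy-21, dpy-26, dpy-27 and sdc-1, all in the highest quartile of exon reads. In that quartile rises were 59.9%, and 423 of 3742 genes were at least 1.5-fold higher in exon reads. The share of the quartile with both was not computed. With exon reads higher by any amount it was 6 of 10, against 12.1% of all genes and 33.1% of the highest quartile. dpy-30 rose in ratio without higher exon reads.

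Per kilobase, intron reads stood far below exon reads in every gene. xol-1 had the highest intron density relative to exon, 17.1% at 25 °C and 7.72% at 16 °C, on few reads. dpy-30 had 9.03% and 3.54%, over the 79 intron bases that the deposited table gives it. sdc-2 had 7.67% and 6.68%, and sdc-1 4.98% and 3.06%. mix-1 had 2.07% and 0.737%, and dpy-28, with 9281 intron bases the most of the 10 by the deposited lengths, had 0.678% and 0.332%, the lowest. In the annotation, mix-1 has more intron bases, 13103. Across the 10 genes, which share both libraries, the rank correlation of the log2 ratio change was -0.10 with intron length and -0.46 with intron number, given as a description.

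Gene structure sets a limit on some of these counts. In worms, xol-1 is known to be controlled partly by retention of an intron, through the RNA-binding protein FOX-1. In the Ensembl release 115 annotation (WBcel235), xol-1 has 3 transcripts and 8 distinct introns, of which 2, of 466 and 1164 bases, lie inside an exon of another transcript, while the 638 intron bases that the table counts for it equal the annotated gaps outside all exons. Reads kept in those 2 introns would count as exon reads where such an annotation was used. None of the other 9 genes had an intron of this kind. mix-1 holds the gene VM106R.1 on the opposite strand, which shares 1123 bases with its introns and had 65 exon reads at 25 °C and 222 at 16 °C, and dpy-30 shares 106 intron bases with rnp-1 on the same strand, so their intron reads are uncertain. sdc-2 has the antisense gene anr-16, dpy-21 a pair of noncoding RNA genes in an intron and dpy-26 an exon overlap with C25G4.3. Whether reads were counted by strand is not given in the sources used here.

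Other condensin genes also had more exon and intron reads at 25 °C. The list held smc-4, capg-1, capg-2, hcp-6 and kle-2, whose products act in the mitotic condensins together with MIX-1 and, in condensin I, with DPY-26 and DPY-28; CAPG-1 also belongs to the dosage compensation condensin. The ratio rose in 5 of 5 by Fisher exact test, against 59.9% of the highest quartile of exon reads, with a median of log2 0.96. The exon median was 0.67, with 4 of 5 at least 1.5-fold higher, against 11.2% of all genes. smc-4, the mitotic counterpart of dpy-27, had 15591 exon reads at 25 °C and 9712 at 16 °C, 1.94-fold higher (1.90 to 1.99), and a ratio 1.95-fold higher (1.49 to 2.58). Its level was 170 RPKM at 25 °C and 87.4 RPKM at 16 °C, beside 169 and 87.8 for mix-1. capg-1 was the lowest of the list in exon reads, 1.24-fold higher (1.19 to 1.29), with a ratio 1.68-fold higher (1.16 to 2.47). hcp-6 had a 2.80-fold higher ratio (1.87 to 4.30).

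The partners of DPY-30 in the SET1/MLL (COMPASS) complexes rose in ratio in 4 of 8, against 59.9% of the highest quartile of exon reads, which holds all 8, with a median of log2 0.84. Their exon median was 0.46, with 2 of 8 at least 1.5-fold higher, against 11.2% of all genes. set-16, an MLL-type H3K4 methyltransferase gene, was 1.59-fold higher in exon reads (1.55 to 1.62) with a ratio 2.17-fold higher (1.61 to 2.94). hcf-1, a chromatin cofactor, was 1.18-fold higher (1.15 to 1.21) with a ratio 1.99-fold higher (1.47 to 2.73).

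Upstream of xol-1, genes that signal the number of X chromosomes or of autosome sets each differed by less than 1.5-fold in exon reads. The ratio rose in 3 of 5, against 59.9% of the highest quartile, which holds 4 of them, with a median of log2 0.71. The exon median was 0.12, with 0 of 5 at least 1.5-fold higher. In that quartile, 423 of 3742 genes were at least 1.5-fold higher in exon reads and 621 at least 1.5-fold lower. sex-1, an X-linked nuclear receptor that represses xol-1, had 5229 exon reads at 25 °C and 5809 at 16 °C, 1.09-fold higher after scaling (1.05 to 1.13), and a ratio 1.79-fold higher (1.499 to 2.15). fox-1 had 267 intron reads at 25 °C and 300 at 16 °C, and the Fisher exact test did not call its ratio of 1.13 (0.944 to 1.35; adjusted p = 0.384). sea-2, an autosomal activator of xol-1, had a ratio 1.64-fold higher (1.29 to 2.102) and exon reads 1.34-fold higher (1.30 to 1.39).

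In the sex determination pathway downstream of the SDC proteins the ratio rose in 2 of 6 genes by Fisher exact test, tra-2 and fem-2, against 28.1% of all genes, with a list median of log2 0.80 and an exon median of 0.13. her-1, the male-promoting secreted signal that the SDC proteins repress in XX animals, had 175 exon reads at 25 °C and 314 at 16 °C. It was 1.48-fold lower (1.23 to 1.79), where the median of all genes tested for exon reads was 1.33-fold lower. Its ratio of 1.52 (0.855 to 2.69) was not called. tra-2, the receptor that HER-1 inhibits, had 85 intron reads at 25 °C and 21 at 16 °C, a 3.86-fold higher ratio (2.36 to 6.57). tra-1, the transcription factor at the end of the pathway, had 709 exon reads at 25 °C and 822 at 16 °C, 1.04-fold after scaling (0.944 to 1.16). Of the genes for H4K20 and H3K9 modification, their readers and the H2A.Z variant, the ratio rose in 4 of 7. The share was 59.9% in the highest quartile, which holds 6 of these genes, and the list median was log2 1.39. Their exon median was -0.13, and 0 of 7 reached 1.5-fold in either direction. Most genes of the highest quartile did not reach it either: of 3742, it was passed upward by 423 and downward by 621. set-1, the methyltransferase gene for H4K20me1, had 3767 exon reads at 25 °C and 5265 at 16 °C, 1.15-fold lower (1.11 to 1.203), and was not called for the ratio. htz-1, the H2A.Z gene, had a ratio 3.29-fold higher (2.66 to 4.11) with exon reads at 1.02-fold (1.01 to 1.04). cec-4, which encodes a reader of H3K9 methylation at the nuclear edge, was 1.32-fold lower in exon reads (1.26 to 1.38) with a ratio 2.74-fold higher (2.00 to 3.77). Of all genes tested for exon reads, 44.9% had a lower exon value than her-1, 58.2% than set-1 and 50.6% than cec-4.

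**Figure D4:**
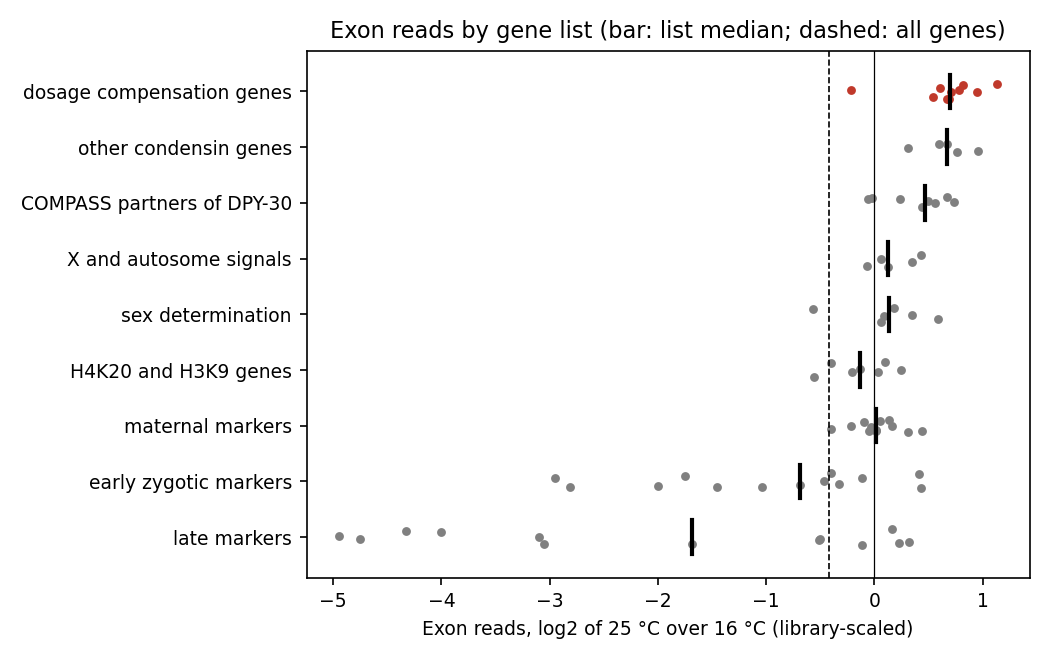
Library-scaled change of exon reads (log2, 25 °C over 16 °C) of single genes in each list, with at least 10 exon reads in 1 library; black bars are list medians, the dashed line the median of all tested genes (-0.42). The dosage compensation genes and the other condensin genes centre at 0.70 and 0.67, and the late markers spread from -4.94 to 0.31.

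Markers of embryonic stage differed between the libraries. Exon reads of 12 maternal early embryo markers had a median of log2 0.01 with 0 at least 2-fold either way, those of 13 early zygotic markers -0.69 with 6 at least 2-fold lower, and those of 13 late differentiation markers -1.69 with 7 at least 2-fold lower, against 33.6% of all genes at least 2-fold lower. Most maternal markers lie in the highest quartile of exon reads, where 298 of 3742 genes were at least 2-fold lower and 89 at least 2-fold higher. Summed exon reads per 1000000 reads were 1695 at 25 °C and 1619 at 16 °C for the maternal list, 397 and 548 for the early zygotic list, and 2155 and 2609 for the late list. The late markers differed among themselves. The muscle myosin gene myo-3 had 14991 exon reads at 25 °C and 14604 at 16 °C, 1.24-fold higher (1.22 to 1.27) and the highest log2 value of the list, and the myosin gene unc-54 had 14179 and 18587, a fold of 0.924 (0.904 to 0.945). The troponin T gene tnt-4 had 49 exon reads at 25 °C and 1844 at 16 °C, the lowest value. Among the early zygotic genes, the muscle transcription factor gene hlh-1 was highest, with 1210 exon reads at 25 °C and 1087 at 16 °C, 1.35-fold higher (1.24 to 1.46). The nuclear receptor gene nhr-2 had 1974 at 25 °C and 2588 at 16 °C, a fold of 0.924 (0.871 to 0.980), and the epidermal factor gene elt-1 had 1468 and 2459, a fold of 0.723 (0.677 to 0.772). The gene pal-1 had 1484 exon reads at 25 °C and 2382 at 16 °C, a fold of 0.755 (0.707 to 0.806). The intestinal factor gene elt-7 was lowest, with 44 at 25 °C and 416 at 16 °C. No marker of these 2 lists was at 0 in either library. In the same lists the ratio rose in 3 of 12 maternal, 9 of 13 early zygotic and 3 of 13 late markers by Fisher exact test. Rises were 28.1% of all genes and 59.9% of the highest quartile of exon reads. Most early zygotic markers lie in the second quartile, so the lists differ in depth and their counts are not directly comparable. The ratio medians of the maternal, early zygotic and late lists were log2 1.38, 1.32 and 0.78, or 0.80, 1.33 and 1.28 with counts under 3 set at 3. The 6 vitellogenin genes of the adult intestine had 89 exon reads in all at 25 °C and 109 at 16 °C, and none was called for the ratio. The part of embryo stage in the exon differences of the dosage compensation genes was not tested, and fewer cells of a stage cannot be told apart from less RNA per cell.

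The complex acts on the X chromosome, so X-linked exon reads were set beside those of autosomes. The 2142 X-linked genes had a median exon difference of log2 -0.59 and the 12085 autosomal genes -0.40, a difference of -0.19. In genes with at least 1000 combined exon reads it turned to 0.03, with medians of -0.05 for X and -0.09 for autosomes. X-linked genes held 12.3% of exon reads at both temperatures. Chromosome V, at -0.70, lay lower than X, and chromosome I, at -0.21, highest. For the intron-to-exon ratio, over genes with 20 or more intron reads, X-linked genes had a median of log2 0.87 and autosomal genes 0.99, a difference of -0.13. It was -0.044 with no minimum of intron reads and -0.053 with at least 50. The 3 X-linked members, sdc-1, sdc-2 and xol-1, had an exon median of 0.71 and the 7 autosomal members 0.67.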

How the data were processed

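Trimmomatic, TopHat2 and HTSeq were used by the authors, per the submitters' processing notes, without versions; genome build and strand setting: not given in the sources used here. Per the file headers, the authors deposited unnormalized counts of exon and intron reads per gene, with summed exon and intron lengths. The authors' deposited fold is a ratio, recomputed within 0.01% in 10860 of 10860 genes with a finite value above 0. Their deposited p-value matched the Fisher exact p used here within 2% in 19487 genes. Their deposited adjusted value of this p was stricter: 2.39e-05 for dpy-21, 0.0052 for dpy-26 and 9.09e-25 for mix-1. It was 0.624 for dpy-28 and higher still for the remaining dosage compensation genes. The rises called here in sdc-1, dpy-27, dpy-28 and dpy-30 therefore do not pass 0.05 by the authors' own adjustment. Columns were matched to temperature by the marks in the sample labels.

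Members and lists were chosen with earlier results of these data known. Ratios were tested per gene by two-sided Fisher exact test (scipy 1.17.1) over 14972 genes with at least 10 combined reads, adjusted by Benjamini-Hochberg. Exon reads needed at least 10 in 1 library, were divided by each library's reads in genes (18175617 at 25 °C, 22016818 at 16 °C) and were described by size alone, since a replicate-based model needs replicates. Medians used 0.5 added reads, while folds of single genes used none. Intervals are for counting error only, and PCR copies can make reads less independent than counted. Genes named were all 10 members and, from each list, the 2 to 4 with most combined reads (none of the maternal and vitellogenin lists), with smc-4, capg-1, her-1, tra-1 and tra-2 always. The markers tnt-4, hlh-1 and elt-7 were named after their values were seen, as ends of their lists. In simulated counts over 14972 genes, the test of the 25 °C over 16 °C ratio recovered 96 of 100 genes with a 4-fold difference. It recovered 37 of 100 with a 2-fold one, and called 5 of 14772 genes with none. This simulation cannot tell how often a call is wrong in the real data. A single library per temperature gives no measure of how cultures differ. Positions came from Ensembl release 115 (WBcel235), which matched 19298 gene identifiers. Its summed intron length equalled the deposited one in 5 of the 10 members, so the authors' gene models may differ. Major sperm protein genes, tra-3, med-2 and vet-4 were not analysed here.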

Additional observations from a re-analysis of the deposited data

How the results depend on the processing

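With a Bonferroni adjustment at 0.01, 3 of the 10 genes in place of 7 were called, dpy-21, dpy-26 and mix-1; the threshold is stricter by construction. Under it the counts of called genes became 3 of 5 for the other condensin genes, 1 of 8 for the COMPASS partners, 2 of 5 for the signal elements, 1 of 6 for sex determination, 3 of 7 for the histone genes, and 1 of 12 maternal, 3 of 13 early zygotic and 0 of 13 late markers. Of all tested genes, 7.4% passed this adjustment as rises, a share not computed by quartile of exon reads. With no minimum of reads, or with at least 50 combined reads, the same 7 were called. The count of genes at least 2-fold higher in exon reads, 1, became 8 with scaling by the median exon ratio and 8 at a size of 1.5-fold. The exon median of 0.70 became 1.11 with that scaling. The difference of -0.19 between X-linked and autosomal exon medians reversed to 0.034 in genes with at least 1000 combined exon reads, and the cause was not tested. For the intron-to-exon ratio the X difference of -0.13 became -0.044 and -0.053 with no minimum and with at least 50 intron reads. A pseudocount of 1 moved the ratio median of the 10 genes to 0.91 from 0.94. Precision is limited by intron reads, of which xol-1 had 30 in all and sdc-3 70, and there is 1 library per temperature. No paired analysis was possible because each temperature has a single library.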
